A study of Mus musculus with 3 samples.

Results

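The baseline expression programme of mock-transfected CLDE cells was read from 1 array. CLDE is a mouse dental epithelial line that was derived from the cervical loop of the tooth and grown in keratinocyte serum-free medium. The cells were harvested 72 h after a mock transfection, and the labels do not say what the mock mixture held. The members were the gene names on this array with at least 1 non-control probe well above the local background, the scanner software's own flag. They numbered 25355 of 36994 gene names (68.5%). Among protein-coding genes 15845 of 20391 (77.7%) were called in this way, among long noncoding RNA genes 1818 of 4003 (45.4%), and among names that RefSeq did not hold 7364 of 12102 (60.8%). The other 2 arrays of the series, cells given a non-targeting siRNA or an siRNA against keratin 15, were not compared with it. The series title names keratin 15 and proliferation in the outer enamel epithelium as its subject. There was 1 array and therefore no replicate, no test and no p-value. Every value is a description of this hybridisation, and the labels give neither a passage nor a clone.

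The mouse incisor grows throughout life from the cervical loop, an epithelial fold at its base that holds dental epithelial stem cells. Their descendants form the outer enamel epithelium, the stellate reticulum, the stratum intermedium and the inner enamel epithelium, and cells of the inner enamel epithelium become ameloblasts, which secrete enamel matrix. Dental epithelium is a stratified-type epithelium: its basal cells build their filaments from the keratin pair Krt5 and Krt14, depend on the transcription factor p63 (Trp63), and are fixed to the basement membrane by hemidesmosomes and to each other by desmosomes. Sonic hedgehog, FGF, BMP, WNT and ectodysplasin signals pass between this epithelium and the mesenchyme beneath it.

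The 5 basal epithelial marker genes set for this part of the series were Krt5, Krt14, Krt15, Trp63 and Epcam. All 5 were well above background, against 77.7% of protein-coding genes. Signal is given as the processed signal in arbitrary units, averaged on the log2 scale over a gene's called probes, and rank counts all gene names from the brightest. Krt5, the type II basal keratin, had a signal of 102674 and rank 28 from its probe at chr15:101537514-101537573 on mm9. Krt14, its type I partner, had 81589 and rank 74 from a probe at chr11:100064495-100064554. Krt15, a further type I basal keratin and the target of the siRNA in the other cultures, had 2638 from a probe at chr11:99993331-99993390. Trp63 had 473 over 4 probes, which read 2432, 1094, 545 and 34.6. Epcam, an epithelial cell adhesion molecule, had 360 from a probe at chr17:88048972-88049800. Whether these probes lie in coding exons or in untranslated sequence was not examined here. The call alone does not bear out the label of the line, since most protein-coding genes were called. The markers covered a wide range of signal. On the brightest probe 4 of 5 reached 1000, against 24.2% of protein-coding genes.

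The threshold of the call was low. Among called gene names the median signal was 64.9, the 75th percentile 384, the 90th 2017 and the 99th 44585. Names under 100 made up 56.7% of those called, and 927 names reached 10000. The dimmest called spot read 4.56 and the brightest uncalled spot 5.48, so the edge was not sharp. Just inside lay Cyp2c29 at 4.56, Csrp3 at 4.63 and Olfr1152 at 4.63. Just outside lay Vmn2r112 at 5.45, Slc28a2 at 5.41 and Olfr157 at 5.38. None of 308 negative control spots was called (0), and the highest of them read 2.30.

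Olfactory and vomeronasal receptors, which are known for use in sensory neurons of the nose, gave a second yardstick. Of 1344 such receptor genes 423 (31.5%) were called, with a median signal of 9.47, and the brightest, Olfr544, reached 1607. The 95th percentile of their brightest-probe signals was 26.4, a level chosen after the values had been seen and called the nasal receptor level below. By gene signal, the mean over called probes, 16370 gene names (44.3%) and 11690 protein-coding genes (57.3%) lay above it. The level itself rests on brightest probes, which is an unlike measure. A gene with several probes can have a probe above the level and a gene signal below it. The lists below are given by their called members. For some lists the members above the nasal receptor level or in the top 10% of called names are also given. A count that is left out says nothing of its size. That top 10% ended at rank 2535 with a signal of 2019, and 7.95% of protein-coding genes lay in it. The median signal of called protein-coding genes was 120. Where no share is printed beside a list count, the count is to be read against 77.7% called and 57.3% above the nasal receptor level.

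**Figure D1:**
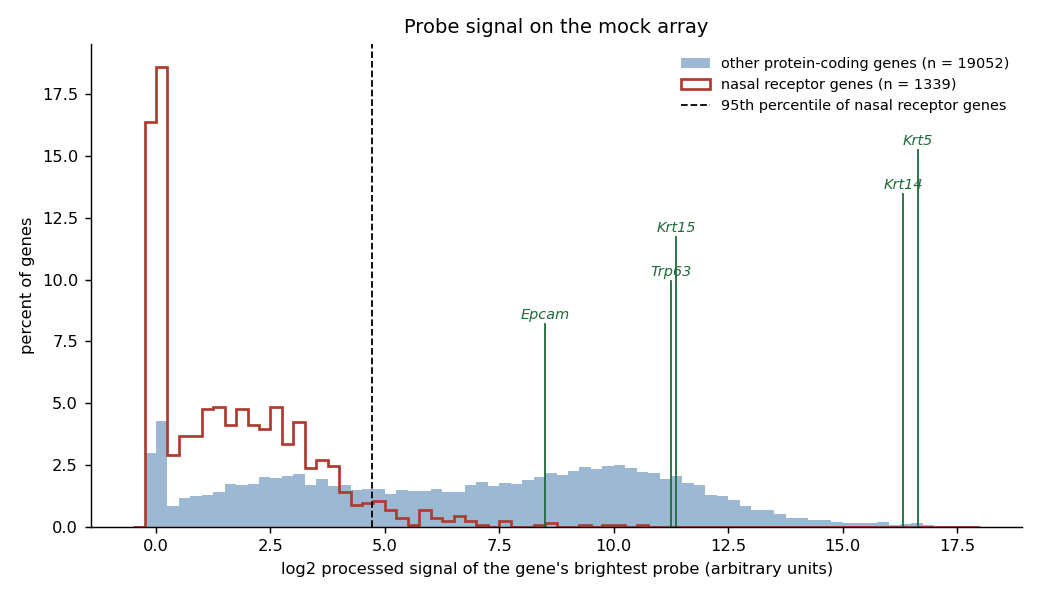
Distribution of the log2 processed signal of each gene's brightest probe on the mock array, as percent of genes, for nasal receptor genes (outline) and other protein-coding genes (filled), with the 95th percentile of nasal receptor genes (dashed, a signal of 26.4) and the 5 marker genes. The receptors pile up at the dim end, Krt5 and Krt14 stand at the bright end, and Epcam, Trp63 and Krt15 lie between them.

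How far a rank can be trusted was read from genes with several probes. The scanner's error model gave an SD of 10.1% of the signal for the median called probe, and the SD over repeated spots of a probe had a median of 0.05 on the log2 scale over 277 probes. Probes of the same gene disagreed by far more. Of 11330 genes with at least 2 probes, 7906 (69.8%) had all their probes called or all uncalled. Among the 7940 genes with at least 2 called probes, the brightest and dimmest called probe differed by a median of 3.28 on the log2 scale, or 9.72-fold, and by over 10-fold in 49.3% of genes. A rank therefore orders probe signals and not amounts of transcript. Differences of 10-fold or less between genes are within the usual disagreement between probes of 1 gene. The widest disagreement among genes with at least 3 probes was in Pbld1, whose probes spanned 94661-fold, from 86882 to 0.92. Pirb, Hk1, Skint7 and Creb5 followed it.

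A small class of probes was called almost without exception and was bright. Of 56603 probes, 257 (0.454%) shared a run of 20 bases with probes of at least 3 protein-coding genes outside their own gene family. The run could match directly or as its reverse complement, and a family was the symbols with the same letters before the first digit. Of the 257 probes 98.8% were called, against 67.4% of the other probes, and the called ones had a median signal of 3820 against 70.3. In 149 genes with both kinds of probe, the brightest shared-run probe was over 10-fold brighter in 101 and the other probe over 10-fold brighter in 6. The 4 runs below were among those shared by the most genes of different families, once overlapping runs and runs mostly of 1 base were left out. They are printed because several of the highest ranks rest on such probes, in lower case with no part marked:
run 1: gtgtgtgtgtgtgtgtgtgt
run 2: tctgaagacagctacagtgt
run 3: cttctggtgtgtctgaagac
run 4: agagagagagagagagagag
The values of the 4 runs are for probes that hold them in the printed direction. In either direction runs 1 to 4 were held by 74, 14, 9 and 14 probes. Run 1, a simple repeat of the bases G and T, was held by 48 probes of 39 protein-coding genes. All 48 were called, with a median of 24867 and a lowest signal of 4089. Run 2 was held by 12 probes, including those of Pbld1, Medag, Ppm1k and Furin, with a median of 67742. Run 3 was held by 9 probes, including that of Pirb, with a median of 64481. Run 4, a repeat of A and G, was held by 7 probes at 1318 to 8351. What RNA these probes bound was not tested. Genes whose signal rests on such a probe are marked as shared-run probes below.

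**Figure D2:**
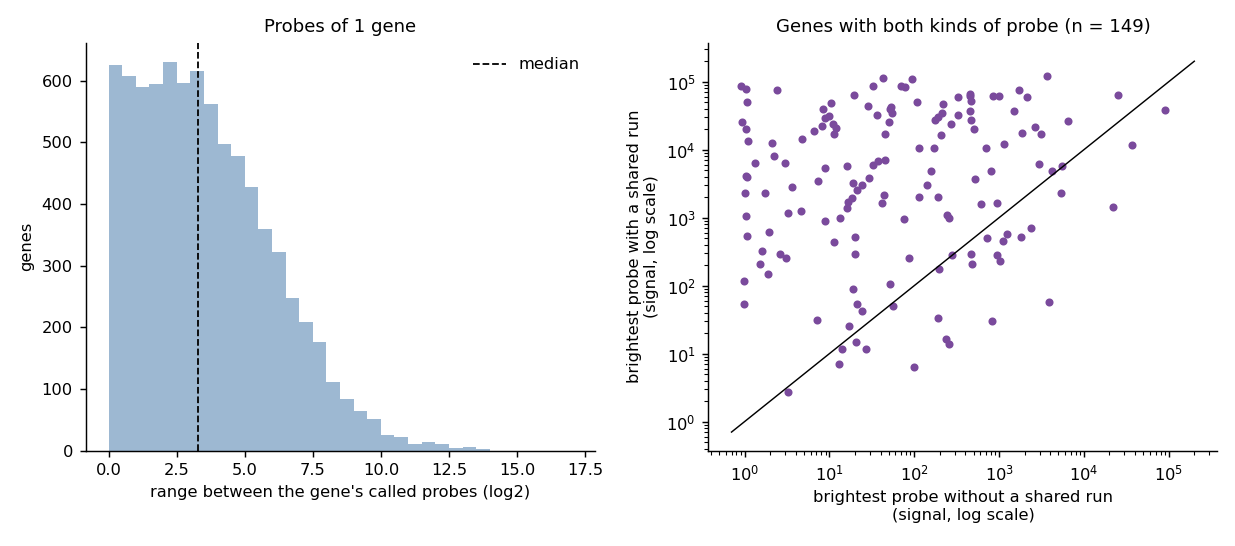
Left, range between the called probes of each of 7940 genes, on the log2 scale, with the median of 3.28 dashed. Right, for 149 genes with both kinds of probe, the brightest probe with a shared run against the brightest without, both as processed signal on log axes with the line of equality; most genes lie above the line.

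The sequence before the start site differed between bright and dim genes. Promoters from RefSeq (GRCm38.p6) were matched by symbol for 16329 protein-coding genes and read from 250 bases before the start up to the start. The median number of CG dinucleotides was 1 for nasal receptor genes. Among other genes it was 4 for those not called, 6 for called genes under a signal of 20, 14 from 20 to 200, 17 from 200 to 2000, 17 from 2000 to 20000 and 14 at 20000 and over. The count thus rose from uncalled to mid-level genes and did not rise further among the brightest. This is a description across genes, which are not independent and share probe and base-composition effects. The share of called probes itself went from 36.1% of probes at or under 30% GC to 93.7% of probes over 60% GC. The median signal of called probes did not follow that order. It was 47.5 at or under 30% GC, 126 from 30% to 35%, 45.6 from 55% to 60% and 76.5 over 60%. The part of probe GC in the promoter pattern was not tested. Keratins and cornified envelope genes stood apart in another way. The motif TATAAA lay on the gene's strand between 40 and 15 bases before the start in 13 of 36 keratins (36.1%) and in 12 of 38 cornified envelope and squamous genes (31.6%). It lay there in 1.54% of 65 cytosolic ribosomal protein genes, in 3.07% of all matched genes and in 1.99% of all 32851 promoter sequences. On either strand anywhere in the 250 bases it was found in 12.4% of promoter sequences. Of the 13 keratins with the motif there, 8 were called, and of the 23 without it 20 were. A match describes the letters only.

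Promoters of 4 genes that span these patterns are shown, with CG and TATAAA in capitals. They are Fau, the ribosomal protein gene of highest signal here, Krt5, Krt10, a suprabasal keratin, and Ambn, which encodes the enamel matrix protein ameloblastin and was not called. Each runs 5′ to 3′ on the gene's strand over the 250 bases before the start, on GRCm38.p6. Fau is at chr19:6057697-6057946 (plus strand), Krt5 at chr15:101712906-101713155 (minus strand), Krt10 at chr11:99389365-99389614 (minus strand) and Ambn at chr5:88455741-88455990 (plus strand).
Fau: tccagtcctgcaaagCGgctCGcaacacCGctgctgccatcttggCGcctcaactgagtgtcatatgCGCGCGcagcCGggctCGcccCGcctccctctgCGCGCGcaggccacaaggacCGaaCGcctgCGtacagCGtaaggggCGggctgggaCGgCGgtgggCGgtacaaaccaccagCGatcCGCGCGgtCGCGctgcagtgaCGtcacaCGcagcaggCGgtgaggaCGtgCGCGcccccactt
Krt5: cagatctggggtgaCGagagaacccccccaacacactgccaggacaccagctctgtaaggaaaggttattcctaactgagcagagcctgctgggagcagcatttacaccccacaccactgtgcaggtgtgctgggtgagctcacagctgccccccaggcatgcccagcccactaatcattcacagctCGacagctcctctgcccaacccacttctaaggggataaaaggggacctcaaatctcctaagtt
Krt10: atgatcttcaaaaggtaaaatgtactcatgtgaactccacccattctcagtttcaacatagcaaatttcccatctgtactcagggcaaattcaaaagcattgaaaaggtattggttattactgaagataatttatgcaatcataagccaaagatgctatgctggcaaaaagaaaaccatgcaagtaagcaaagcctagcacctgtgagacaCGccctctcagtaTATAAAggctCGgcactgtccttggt
Ambn: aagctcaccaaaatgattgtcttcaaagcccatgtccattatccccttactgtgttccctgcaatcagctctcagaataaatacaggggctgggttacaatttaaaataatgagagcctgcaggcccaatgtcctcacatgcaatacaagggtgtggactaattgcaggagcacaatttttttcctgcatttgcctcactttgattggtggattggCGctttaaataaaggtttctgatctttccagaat
Fau held 33 CG dinucleotides and a signal of 116818, Krt5 held 2 and a signal of 102674, and Ambn held 1 and a signal of 0.97, uncalled. Among these 4, Krt10 was the only one with TATAAA, with 2 CG dinucleotides and a signal of 284. Krt5 and Fau had near-equal signals with opposite CG content.

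A few keratins were among the brightest genes, while the family as a whole was not bright. Of 53 keratin genes 44 (83.0%, against 77.7% of protein-coding genes) were called and 4 reached 10000. Above the nasal receptor level lay 25 of 53, a lower share than the 57.3% of protein-coding genes, and the median of called keratins was 39.5. Those 4 were Krt17 at 121889, Krt5 at 102674, Krt6a at 99914 and Krt14 at 81589, each read from 1 probe. They came from the basal pair and from the stress keratins, a group known from wounded or hyperproliferative epidermis and from hair follicle and nail. Krt17 was the brightest gene with a proper symbol on the array, at rank 6 of all names. The remaining stress keratins, Krt16 with probes at 1161 and 603 and Krt6b at 466, lay far below Krt17 and Krt6a. Krt6a and Krt6b are close copies, as are Krt16 and Krt17, so the split of signal within each pair is uncertain.

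Simple epithelial keratins, which form the filaments of single-layered epithelia, were led by Krt18 at 4709, with its partner Krt8 at 785 and 646 in its 2 probes. Krt7 had 102, above the nasal receptor level, and Krt19, Krt20 and Krt23 lay below it at 11.2, 9.52 and 8.83. Suprabasal keratins, which mark cells that have left the basal layer, were dim. Of 14 members 12 were called, 7 lay above the nasal receptor level and none was in the top 10% (0). The brightest was Krt10 at 284, its partner Krt1 read 7.23 in 1 of 2 probes, and Krt12 and Krt76 were not called.

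Keratins of hair and inner root sheath were called in 19 of 25 cases with a median of 11.53, near the 9.47 of nasal receptors. Krt42 at 4324 and Krt81 at 839 stood above the rest, the next being Krt86 at 83.2. The Krt42 value rests on 1 of 2 probes, the other reading 3.79 without a call. Krt25, Krt34, Krt35, Krt39, Krt73 and Krt82 were not called. Keratin-associated proteins, cross-linkers of hair keratin, were called in 30 of 54 cases, led by Krtap4-6 at 24983 and Krtap4-13 at 5711. The Krtap genes have near-identical copies, and their values are uncertain for that reason.

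**Figure D3:**
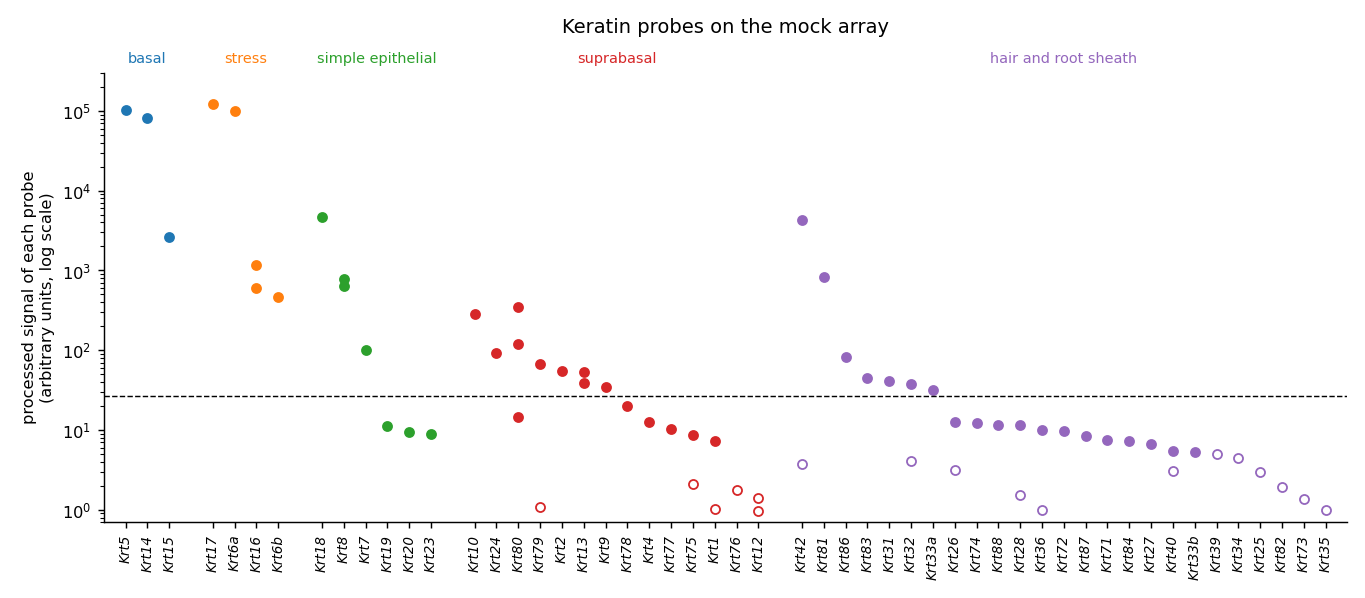
Processed signal (log axis) of every probe of 52 keratins, grouped by class and ordered by signal; filled circles are probes well above background, open circles are not, and the dashed line is the nasal receptor level of 26.4. Krt17, Krt5, Krt6a and Krt14 stand together at the top, at 121889 to 81589, probes of suprabasal keratins reach 345 at most (Krt80), and most hair keratins lie under the dashed line.

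Cell junction genes were broadly called. Of 38 adherens, desmosome and tight junction genes 34 were called, 30 lay above the nasal receptor level and 7 were in the top 10%. The brightest were desmosome parts: Perp, a membrane protein of desmosomes, at 38633, Pkp1, plakophilin 1, at 27743, and Dsp, desmoplakin, at 10366. F11r, the tight junction protein JAM-A, had 9263, and Cdh1, E-cadherin, had 4666, each from 1 probe. P-cadherin (Cdh3), of basal cells, had 1908. The genes not called were the desmosomal cadherin Dsc2, Cldn8 and the connexins Gjb2 and Gjb6.

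Hemidesmosome and basement membrane genes were called in 24 of 27 cases, with 21 above the nasal receptor level and 6 in the top 10%. Lama5, a laminin chain, had 32885, Col7a1, the anchoring fibril collagen, 9292, and Lamb3, a chain of laminin-332, 6832. Lama3, a further laminin-332 chain, had 2331. Integrin α6 (Itga6) and β4 (Itgb4), the hemidesmosome receptor, had gene signals of 460 and 302. Their brightest probes read 9626 and 16564, so the means were set by dim probes. On the brightest probe 18 of 27 members reached 1000, against 24.2% of protein-coding genes. Itga2, Nid1 and Nid2 were not called.

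Of 26 epithelial transcription factors and splicing regulators 25 were called and 24 lay above the nasal receptor level, and Tfap2b was not called. Klf4, a zinc finger factor of differentiating epithelium, had 13077 and was the only member in the top 10%. The next were Esrp2 at 887 and Esrp1 at 773, which direct epithelial splicing. Zfp750, Grhl3, Ovol2, Klf5 and Grhl2 had 431, 385, 376, 369 and 331. The group was thus called almost throughout at moderate signals, with a list median of 169 against 120 for called protein-coding genes.

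Transcription factors known from dental epithelium were also called in nearly every case, in 21 of 22 (95.5%, against 77.7% of protein-coding genes). Above the nasal receptor level lay 15 (68.2%, against 57.3%). The called members of the list had a median of 93.1, below the 120 of called protein-coding genes. Pitx1, a homeobox factor of the first pharyngeal arch and the hindlimb, had 19085 from its probe at chr13:55926417-55926476 on mm9. Tbx1, a T-box factor of dental epithelial progenitors, had 2303. These were the only members in the top 10% (2 of 22, against 7.95% of protein-coding genes). Dlx3 had 873, Sox21 435, Msx2 probes at 431 and 359, and Sox2, a marker of cervical loop stem cells, 316. Lef1, a WNT effector, had 138 in 1 of 3 probes. Dlx2, Satb1, Nkx2-3, Dlx6, Foxi3 and Foxj1 were called below the nasal receptor level, and Dlx1 was not called.

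Genes linked to the cervical loop stem cells gave a mixed picture. Of 25 members 20 were called (80.0%), close to the 77.7% of protein-coding genes. Above the nasal receptor level lay 19 (76.0%, against 57.3%). Wwtr1 (TAZ) had 4619 and Yap1 1194 from probes at 6245 and 228, both co-activators of the Hippo pathway. The surface protein Cd24a had 4277. Bmi1, a Polycomb protein needed for self-renewal, had 252, and Lrig1, a brake on ErbB receptors and a marker of slow-cycling epithelial stem cells, had 145. The Hedgehog target Gli1, which marks stem cells in the incisor, had 36.7. Lgr5, a WNT-pathway receptor and stem cell marker, was not called, its probes reading 0.99 and 0.97. Igfbp5, Spry4, Pknox2 and Vat1l were not called either.

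Signalling genes of the enamel knot and tooth bud held both bright and uncalled members, also within families. Among WNT ligands Wnt10a had 5159, Wnt4 3500, Wnt7b probes at 4051 and 1350, and Wnt7a probes at 3480 and 1275. Bmp7 had 4447. Shh, the Hedgehog ligand of dental epithelium, read 2.60 and was not called. Also not called were Fgf4, Fgf9, Fgf15 and Fgf20, the BMP ligand Bmp2, Wnt3, the ectodysplasin receptor Edar and the BMP and WNT antagonist Sostdc1. In all 20 of 29 members were called (69.0%), below the 77.7% of protein-coding genes, while 5 of 29 were in the top 10%. Fgf8 at 36.5 and Fgf3 at 13.5 were called near or below the nasal receptor level.

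The genes of secreted enamel matrix proteins were at or near background. Ambn, Enam and Amtn, which encode secreted enamel matrix proteins, read 0.97, 2.47 and 1.99, and none of these 3 was called. Odam, Acp4, the matrix protease Mmp20 and the carbonic anhydrase Car2 were not called. Amelx, the main enamel matrix gene, was called at 4.83 in 1 of 3 probes, within the range of uncalled spots, and Klk4, the late enamel protease, had 35.4. Other genes of the list are known from enamel defects or from ion transport and are not specific to ameloblasts. Fam83h, a scaffold protein that binds keratin filaments, had 6978, the secreted carbonic anhydrase Car6 3069, Cnnm4 790, Slc4a2 611 and Fam20a 536. Of the 33 listed genes 26 were called (78.8%, against 77.7% of protein-coding genes) and 17 lay above the nasal receptor level (51.5%, against 57.3%). The list as a whole was therefore close to the background shares, with a median of called members of 40.3.

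**Figure D4:**
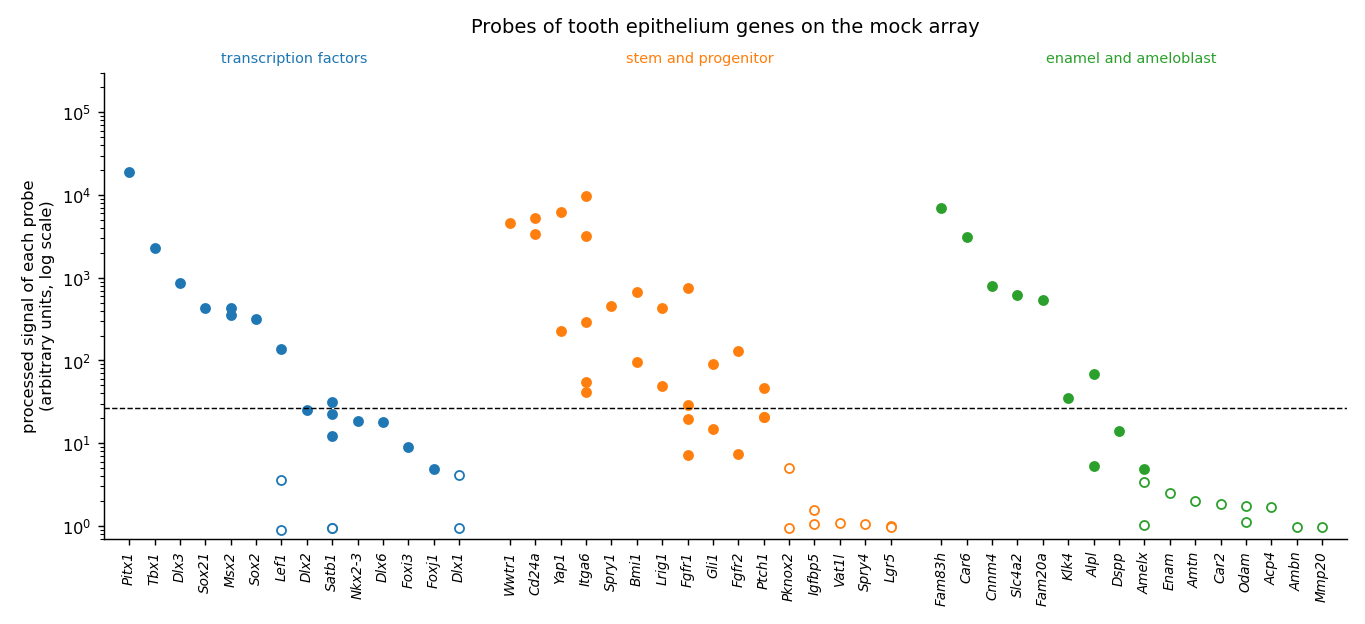
Processed signal (log axis) of the probes of those dental transcription factors, cervical loop stem and progenitor genes and enamel or ameloblast genes that the text names; filled circles are probes well above background, open circles are not, and the dashed line is the nasal receptor level of 26.4. Pitx1 is the brightest of the transcription factors at 19085, and Ambn, Enam, Amtn and Mmp20 have open circles only.

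Notch genes, which act in the stratum intermedium, were called in 18 of 21 cases (85.7%, against 77.7% of protein-coding genes). Notch3 had 2238, the ligands Jag2 and Jag1 1177 and 875, Hes6 531 and the DNA-binding partner Rbpj 515. Notch1 had a lower gene signal of 61.0, and Hey2, Heyl and Mfng were not called. Alpl, the alkaline phosphatase that marks the stratum intermedium, had a gene signal of 19.1, below the nasal receptor level. Its called probes differed by 3.69 on the log2 scale.

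Squamous differentiation and cornified envelope genes were called less often than protein-coding genes as a whole, in 28 of 45 cases (62.2%). The called ones included desmosomal and secreted proteins of upper epidermal layers: Cdsn, corneodesmosin, at 6115, Ly6d at 5414, Dmkn, dermokine, at 3817, Lypd3 at 1755 and the protease inhibitor Spink5 at 1523. The small proline-rich envelope proteins Sprr1a and Sprr1b had 982 and 511. The envelope protein Ivl, involucrin, read 4.89 and was not called, and Lor, loricrin, had 18.6. Flg2, Hrnr, Rptn, Sprr3, Tgm5 and the desmosomal cadherin Dsg1a were among the 17 not called. Called and uncalled members thus lay side by side within this list.

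Markers of other cell types were examined next. Of 30 fibroblast and mesenchymal markers 21 (70.0%) were called, 12 lay above the nasal receptor level and none was in the top 10% (0). Vim, the intermediate filament protein of mesenchymal cells, read 7.56 in its 1 probe. The collagen genes Col1a1 and Col3a1, main products of fibroblasts, had 21.7 and 5.58. Pdgfrb, Lum, Thy1, Fap, Fbn1, Mmp2, Lox, Col5a2 and Spon1 were not called. Some members had 1 bright probe beside dim ones: Sparc, a matrix-binding protein, read 33134, 3961 and 14.5, Fn1, fibronectin, 2459, 119, 42.1 and 12.3, Acta2 4481, 131, 1.62 and 0.96, and Cdh11 2612 and 187. On the brightest probe 4 of 30 reached 1000, against 24.2% of protein-coding genes. In a bulk culture, fewer cells of a type and less RNA per cell cannot be told apart.

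Among mesenchymal transition factors Snai2 (Slug), a zinc finger repressor that basal keratinocytes also use, had 4493. The next were Foxc2 at 140 and Twist1 at 96.2, and Snai1 and Zeb1 were not called. Of 20 dental mesenchyme and odontoblast genes 14 were called and 6 lay above the nasal receptor level. The brightest, Lhx6 at 614, rests on a shared-run probe, its other probe reading 1.95 without a call. Msx1, a homeobox factor of tooth mesenchyme, had 189, Pax9 34.7 and Dspp, of dentin, 13.9, and Barx1, Dmp1, Phex, Ibsp, Alx4 and Fgf10 were not called.

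Endothelial markers were called in 4 of 12 cases, with 1 above the nasal receptor level, Pecam1 at 26.7. Cdh5, Kdr, Tek, Tie1, Cldn5, Emcn, Erg and Sox18 were not called. Blood and immune markers were called in 14 of 17 cases (82.4%, against 77.7% of protein-coding genes), led by Csf1r at 407 and Cd68 at 340. Above the nasal receptor level lay 7 (41.2%, against 57.3%), and 4 of 17 reached 1000 on the brightest probe, against 24.2% of protein-coding genes. The pan-leukocyte gene Ptprc had 108, and the myeloid genes Adgre1, Lyz2 and Spi1 were not called. Itgam at 247, the third of them, is the mean of a shared-run probe at 3221 and another probe at 18.96. Snap25 at 2341, the highest of 13 called neural, glial and melanocyte markers, and Nanog at 292, the highest of 5 called pluripotency and germ cell genes, also rest on shared-run probes. The highest of the muscle and fat list (9 of 13 called) was Tnnt2 at 381 and of the liver and gut list (6 of 12 called) Lgals4 at 504. Alb, Ttr, Myog and Adipoq were not called.

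**Figure D5:**
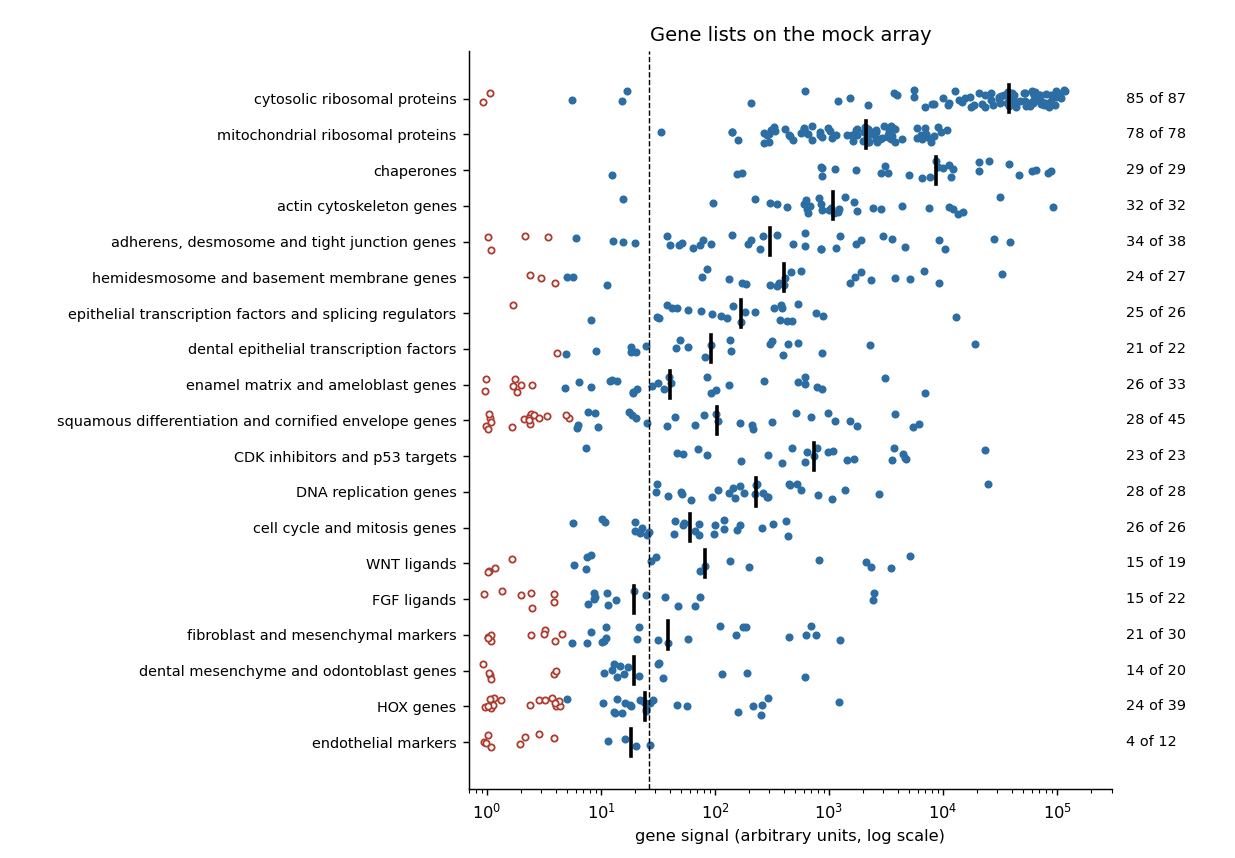
Gene signal (log axis) of the members of 19 gene lists; filled points are called genes at their mean over called probes, open points are uncalled genes at their brightest probe, black bars are medians of called genes and the numbers at the right count called members. Of the lists drawn, cytosolic ribosomal proteins have the highest median (38020), and endothelial markers have the fewest called members (4 of 12).

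The positional code of the cells was read from homeobox genes. HOX genes pattern the trunk and are not known for activity in the anterior head. They were called in 24 of 39 cases (61.5%, against 77.7% of protein-coding genes), with a median of 24.5. Above the nasal receptor level lay 10 (25.6%, against 57.3%). The highest gene signal in the list was 1227. Other members above the nasal receptor level included Hoxa7 at 294, Hoxb4 at 258, Hoxb13 at 252 and Hoxd8 at 217. Craniofacial homeobox genes were called in 25 of 29 cases (86.2%, against 77.7% of protein-coding genes). Above the nasal receptor level lay 17 (58.6%), close to the 57.3% of protein-coding genes. The median of called members was 57.5, below the 120 of called protein-coding genes. Beside Pitx1, Dlx3 and Msx2, this list held Prrx2 at 333 and Six4 at 141. Dlx1, Barx1, Alx4 and Six2 were not called.

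The brightest names were mostly without a proper gene symbol. Of the 100 brightest names 35 were proper gene symbols and 65 were clone, predicted-gene or accession names, 16 of which the file describes as ribosomal proteins. Cytosolic ribosomal protein genes took 19 of the 100 and shared-run probes 5. Among proper symbols Krt17 at 121889 was followed by Kctd14 at 121286, a shared-run probe, and by Fau at 116818, Rpl32 at 114607, Rplp2 at 109027 and Rpl10 at 105494. Exosc2, an exosome subunit, and Zfp628, a zinc finger gene, had 105036 and 97564 from 1 probe each. The mitochondrially encoded cytochrome oxidase gene COX2 had 100883. Other bright genes were Actb, β-actin, at 91704, the small heat shock protein Hspb1 at 88320, ferritin heavy chain Fth1 at 85416, cyclophilin A (Ppia) at 82851 and the noncoding RNA Gas5, a host of small nucleolar RNAs, with probes at 87110 and 71997. Medag at 85249, Pirb at 77041 and Fam177a2 at 71169 rest on shared-run probes. Taking each gene's brightest probe in place of the mean kept 19 of the 40 brightest symbols.

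Cytosolic ribosomal proteins were bright nearly throughout. Of 87 cytosolic ribosomal protein genes 85 were called, 78 lay in the top 10% and the median was 38020. The exceptions were Rpl39l and Rpl3l, tissue-restricted copies, which were not called. Ribosomal protein genes have many processed copies in the genome, and their values are uncertain for that reason. All 78 mitochondrial ribosomal protein genes were called, 41 of them in the top 10%, with a median of 2114, led by Mrpl51 at 10772. Of 83 respiratory chain subunits 81 were called and 61 were in the top 10%, led by Cox6a1 at 60206, Cox8a at 44695 and Uqcrq at 41124. Cox8b and Cox8c, forms of muscle and testis, were not called.

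The list of translation factors had 34 of 35 members called and 23 in the top 10%. Its brightest members were Tpt1 at 52235, listed there though named as a translationally controlled protein, and Eef1b2 at 48448. Eef1a2, the elongation factor form of muscle and neurons, was not called, while its ubiquitous counterpart Eef1a1 had probes at 64034 and 13663. Proteasome subunits were called in 38 of 39 cases with 18 in the top 10%, and Psma8, the testis form, was not called. All 29 chaperones were called, 21 in the top 10%. The endoplasmic reticulum chaperones Hsp90b1, Pdia6 and Hspa5 had 64658, 60515 and 37716. In these families genes were named for being among the brightest or for being uncalled, so the contrast between the named genes follows from that choice. Dim called members also occurred. The lowest called signal was 5.62 among cytosolic ribosomal proteins, 8.18 among respiratory chain subunits and 5.64 among proteasome subunits.

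Glycolysis genes were all called (18 of 18, 9 in the top 10%), led by Aldoa at 53905. Gapdh had 7 probes that ran from 11916 to 95482. Iron and redox genes were called in 27 of 28 cases, with ferritins Fth1 and Ftl1 at 85416 and 44308 and the glutathione transferase Gsto1 at 40887, and Nqo1 was not called. All 32 actin cytoskeleton genes and all 12 annexins were called. The annexin Anxa8 had 35917, the actin-capping protein Capg 31470, and the calcium-binding S100 proteins of epithelia, S100a6 and S100a14, 17508 and 11177. The lysosomal genes Lamp1 and Ctsd had 32642 and 27191. The epithelial serpin Serpinb5, maspin, had 5787.

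Cell cycle and mitosis genes were called throughout at signals near the middle of the array. All 26 were called, 17 (65.4%, against 57.3% of protein-coding genes) lay above the nasal receptor level and none was in the top 10% (0). Their median of 59.9 was close to the 64.9 of all called names and below the 120 of called protein-coding genes. With 1 array no error was estimated for the median of a list. Pttg1, securin, had 435 from probes at 4825 and 39.2. Ube2c, a ubiquitin carrier of the anaphase-promoting complex, had 421, the kinase Aurka 321, Plk1 166, the proliferation marker Mki67 98.0, Cdk1 66.5 and Top2a 51.9. All 28 DNA replication genes were called and all 28 lay above the nasal receptor level. Their median was 227, against the 59.9 of the mitosis list, a difference that was not tested. The replication clamp Pcna had 2761, the licensing factor Cdt1 1373, and the helicase subunits Mcm4 and Mcm2 798 and 571. The highest of that list, Ung at 24642, rests on a shared-run probe.

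Of 16 G1 cyclins, kinases and MYC genes 15 were called and 3 were in the top 10%, with a median of 346. The brightest was the cyclin Ccnd2, at 47719, 16641 and 12448 in its 3 probes, and Ccnd1 had 5159. The kinase Cdk4 had 6330 and Myc 515, and cyclin E2 (Ccne2) was not called. All 23 CDK inhibitors and p53 targets were called, with 6 in the top 10% and a median of 734. The p53 target Phlda3 had 23264, Ccng1 4745, Bax 4636, Zmat3 4438, Mdm2 3694 and Sesn2 3557. Trp53 itself had 1427. Cdkn1a, the CDK inhibitor p21, had probes at 7195, 642 and 102. The median of 734 lay above the 120 of called protein-coding genes and above the 59.9 of the mitosis list. No error was estimated for these medians, and their difference was not tested.

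EGF and FGF ligands were mostly dim. EGF family genes were called in 12 of 14 cases with none in the top 10% (0). The receptors Erbb4 and Erbb2 had 851 and 645, Egfr 121 from probes at 1057, 227, 132 and 6.81, and the ligand Areg 580. Epgn and Btc were not called. Of 22 FGF ligands 15 were called (68.2%, against 77.7% of protein-coding genes) and 6 lay above the nasal receptor level (27.3%, against 57.3%). Fgf23 at 2464 rests on a shared-run probe, and Fgf21 had 2411, while the other called ligands stayed at or below the 74.1 of Fgf11. FGF receptors read 41.9 for Fgfr1, 31.0 for Fgfr2 and 32.8 for Fgfr3, whereas the ERK feedback phosphatase Dusp6 had 1134 and Spry1 461.

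WNT ligands were called in 15 of 19 cases (78.9%), close to the 77.7% of protein-coding genes. The 4 named above were in the top 10%, and Wnt2, Wnt2b, Wnt3 and Wnt16 were not called. Of 37 WNT receptors, antagonists and effectors 29 were called (78.4%, also close to that share). Axin1 had 1099 and the receptors Lrp6 and Fzd6 421 and 331, and the secreted antagonists Dkk1, Dkk2, Dkk3, Sfrp2, Sfrp4 and Wif1 were not called. BMP and TGF-beta genes were called in 37 of 41 cases, with Bmp7 at 4447, Gdf15 at 4354, Smad1 at 2961 and the receptor Tgfbr2 at 2803, and with Bmp2, Bmpr1b and Grem1 among those not called. Of 14 Hedgehog genes 10 were called (71.4%), with a highest gene signal of 252, and 2 reached 1000 on the brightest probe. The transducer Smo had 165, the target Ptch1 had 27.1, and Shh, Dhh, Gli2 and Hhip were not called. In the ectodysplasin pathway 7 of 8 genes were called, with a highest gene signal of 1189. The ligand Eda had 32.3 and the second receptor Eda2r 166, and Edar was not called.

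Inflammatory ligands were mostly dim. Of 38 chemokines 15 (39.5%) were called, a lower share than the 77.7% of protein-coding genes. Cxcl16 had 1679 and Cxcl1 746, and the brightest by gene signal, Cxcl11 at 13602, averages a shared-run probe at 82217 with another at 2250. Interleukins and colony-stimulating factors were called in 31 of 45 cases with a median of 19.9, led by Il18 at 372, and Il6, Il1b and Il33 were not called. Lipocalin 2 (Lcn2) had 2930 and complement C3 1327. Interferon-stimulated genes were called in 23 of 28 cases, with Ifitm3 at 7432 and Isg15 at 192, and Ifit1, Ifit2, Ifit3, Mx1 and Ifnb1 were not called. All 17 immediate early genes were called, led by Jund at 10242, Klf6 at 6828 and Atf3 at 6795.

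Of 26 matrix proteases 20 were called (76.9%), close to the 77.7% of protein-coding genes. They were led by Adam9 at 2663, the urokinase receptor Plaur at 2261 and the epithelial serine protease Tmprss11e at 2117. Mmp2, Mmp3, Mmp7, Mmp9, Mmp20 and Plat were not called. All 16 listed long noncoding RNAs, a set of well-known genes, were called, against 45.4% of all long noncoding RNA genes. After Gas5 came Snhg8 at 18924 and Snhg6 at 13332, both hosts of small nucleolar RNAs. Mir205hg, the host transcript of miR-205, a microRNA of stratified epithelia, had 2038. H19 and Meg3, imprinted noncoding RNAs, had 12.2 and 6.47.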

How the data were processed

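Cy3-labelled RNA of mock-transfected CLDE cells was hybridised to a 1-colour Agilent mouse array, as the labels' protocols state. Feature Extraction, version 11.5.1.1, is the scanner software in the submitters' processing notes. Per the file headers its protocol was GE1_1105_Oct12, and probes are placed on mm9. Each spot of the deposited scanner file has a processed signal: an intensity with the background subtracted, linear and without a physical unit. The authors also deposited a value table for the series, on a log2 scale. It equals the log2 processed signal minus a constant of 7.57 within 0.01 for 93.8% of probes, has a median of -3.52, and was used as an alternative, with 2 columns of other arrays not used.

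Of 62976 spots, 59305 were not controls, 40901 of these (69.0%) were well above background and 0 were saturated. Outlier spots (69) were left out. Spots of a probe were averaged on the log2 scale, and a probe was called if over 50% of its spots were well above background. Probes were named through RefSeq (GRCm38.p6), used for names and promoter sequences: 33894 by their accession, 9464 by their symbol and 489 by an older symbol, while 12756 kept the file's name. No scaling was applied within 1 array, and having 1 array limits the precision.

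The 59 gene lists and the genes named were chosen with earlier results of these data known. Genes named are the 5 markers, the 40 brightest symbols, the 20 brightest in no list, the keratins, of each list up to 6 of the brightest members and the uncalled ones, the 5 genes whose probes differ most and 3 genes on each side of the threshold. Other genes named for their role were added after their values were seen. Python 3.11.15, pandas 2.3.3 and, for normexp, limma 3.58.1 in R 4.3.3 were used. The step from probes to gene levels and ranks was run on simulated data whose probe calls were set in advance. The call of a probe itself was not tested. Some list members have no matched name and are not analysed here, and some others are not reported here.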

Additional observations from a re-analysis of the deposited data

Results flagged for a closer look

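The array carries probes for ERCC spike-in RNAs, a set of synthetic transcripts, which the file treats as controls and which no comparison above used. Of 2772 ERCC spots on 96 probes, 20.5% were well above background, against 0 of 308 negative control spots. Their median signal was 1.96 and the highest 75.8, and 2 of the 96 probes had a median above the nasal receptor level. The labels do not say whether ERCC RNA was added.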

How the results depend on the processing

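With 1 array there is no replicate to leave out, and the precision is limited by the number of arrays and by probe behaviour near background. The count of called gene names (25355) stayed within 1.5 times under 10 other settings, from 21724 with all probes of a gene required to 32587 with the flag for a positive and significant signal. The brightest probe, the median, normexp and the value table keep the call and so could not change it. Nor could a signal above the 99th percentile of negative controls. The highest such control read 2.30 and the dimmest called spot 4.56. The count moved to 16370 with the nasal receptor level, a setting chosen after the data had been seen, as was leaving out shared-run probes. Of the 40 brightest symbols 19 were shared when each gene took its brightest probe, and 35 to 40 under the other settings run for that result. The number of lists called at a higher rate than all gene names (68.5%) was 50 of 59, and 38 to 52 under the alternatives, each against its own rate; against the 77.7% of protein-coding genes it was 41. The share of genes whose probes had the same call (69.8%) was 81.3% with accession-matched probes alone and 81.1% with the flag for a positive and significant signal. Counts of called members moved by over 1.5 times in 21 of 59 lists with the nasal receptor level, in 9 with all probes required and in 5 with the positive and significant flag. No paired analysis was possible because each group has 1 array.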

Other observations

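Transcripts that depend on the sex chromosomes were read as a list added after the data had been seen. Xist, the noncoding RNA of the inactive X chromosome, had a signal of 384 from 1 probe. Of 4 Y chromosome genes on the array only Kdm5d was called, at 180 in 1 of 6 probes, and Ddx3y, Uty and Eif2s3y were not.

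The array's own spike-in series ended below the brightest genes. The 10 E1A spike-in probes, each with 35 spots, had median signals from 4.31 to 47242, and the software reported a slope of 1.05 for log signal against log amount, with an R squared of 0.99. Genes above that highest spike-in, such as Krt17, Krt5 and Fau, lie outside the range it covers.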
